A study of Mus musculus with 36 samples.

Results

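Macrophages sorted from the aortas of Apoe-deficient mice with advanced atheroma were compared with those from mice at baseline, 4 libraries a side out of 36 in the series. All the mice were Apoe ko, so they lacked apolipoprotein E, which clears cholesterol-rich lipoproteins from the blood. The advanced group had eaten a high cholesterol diet for 6 months and the baseline group a chow diet. The 4 aortic libraries of the early stage, after 1 month of the diet, entered the fit to estimate the spread, and their levels are given beside some results. The series follows gene regulation in macrophages of the lesion and in circulating, splenic and peritoneal cells while the disease develops. Neither age nor sex is labelled, nor whether a library came from 1 mouse or a pool, nor whether the replicates are separate mice. The p-values therefore measure the spread between these samples only.

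In an atherosclerotic artery, macrophages take up cholesterol-rich lipoproteins, store the cholesterol as lipid droplets and digest the particles in lysosomes, which turns them into foam cells. Foam cells in mouse lesions are known for the surface receptor TREM2 and genes such as Gpnmb and Spp1. Other lesional macrophages are known for inflammatory cytokines and chemokines driven by the transcription factors NF-kB and AP-1. The healthy artery holds resident macrophages that carry LYVE1, a receptor for hyaluronan, and scavenger receptors such as stabilin-1.

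The sort was checked against 15 macrophage genes, among them Ptprc, Csf1r, Cd68, Adgre1 and Lyz2. All 15 were counted in both groups, and their summed level was 14595 ± 1405 CPM (counts per library scaled to a common total) in advanced libraries and 13567 ± 1939 CPM in baseline libraries (SD, n = 4 each; exact permutation p = 0.486). Apoe, the disrupted gene (chromosome 7, 19696244 to 19701310; positions here span the gene as RefSeq places it on GRCm38.p6, or mm10), had 112, 26.1, 39.1 and 40.9 CPM in the advanced libraries and 37.2, 3.36, 2.65 and 38.4 CPM in the baseline libraries. These levels overlapped (log2 fold change 1.48 ± 0.95, standard error; adjusted p = 0.792, edgeR). Since the deleted stretch of Apoe is not labelled, its counts do not check the genotype.

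The groups also differed as libraries. Advanced libraries held 1.07 to 2.47 M counted reads and baseline libraries 5.28 to 9.74 M, so the stage cannot be told apart from the depth (exact permutation p = 0.029, the smallest that 4 against 4 can give). The ribosomal RNA precursor Rn45s took 10.04 ± 0.649% of the reads in advanced libraries and 5.40 ± 0.931% in baseline libraries (SD, n = 4 each; exact permutation p = 0.029). At an equal depth of 1073265 reads, 9216 to 12494 genes were detected in advanced libraries and 6755 to 9595 in baseline libraries (exact permutation p = 0.0857). Advanced library 1 and baseline libraries 3 and 4 stood apart, with no count for 14.78, 25.6 and 31.3% of the genes tested, against 0.181 to 0.373% in the other advanced libraries and 7.75 and 8.31% in the other baseline libraries. Pairs of advanced libraries correlated at 0.795 to 0.956 across genes, and pairs of baseline libraries at 0.519 to 0.735 (Spearman's rho, 6 pairs each). The part of depth, Rn45s and these libraries in the results was not tested beyond the fits without them, given below.

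Of 9920 genes tested, 53 were higher and 5 lower in advanced than in baseline macrophages, at an adjusted p under 0.05 in edgeR's quasi-likelihood test (0.585% of genes called, 0.534% higher and 0.0504% lower). The median log2 fold change of all genes tested was -0.04. The higher genes included glycoproteins, cathepsins and a lipid droplet protein of foam cells, inflammatory cytokines and chemokines, and the Fos and Jun family of transcription factors. In 57 of the 58 called genes the levels of the 4 advanced and 4 baseline libraries did not overlap, as in 5.46% of all genes tested with every advanced library above and 3.78% with every one below. Of the 53 higher genes, 8 had no count in any baseline library, while 42 averaged at least 20 CPM there. Among all 9920 genes tested, 131 had no count in any baseline library, and 1 had none in any advanced library. A gene without a baseline count entered the test only through its advanced or early counts. At equal depth, baseline libraries held 6755 to 9595 detected genes and advanced libraries 9216 to 12494. The part of this in the 131 and the 1 was not tested. The biological coefficient of variation was 110%, so a gene short of the threshold is not shown to be unchanged. In bulk RNA, more cells of a type and more RNA per cell cannot be told apart.

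**Figure D1:**
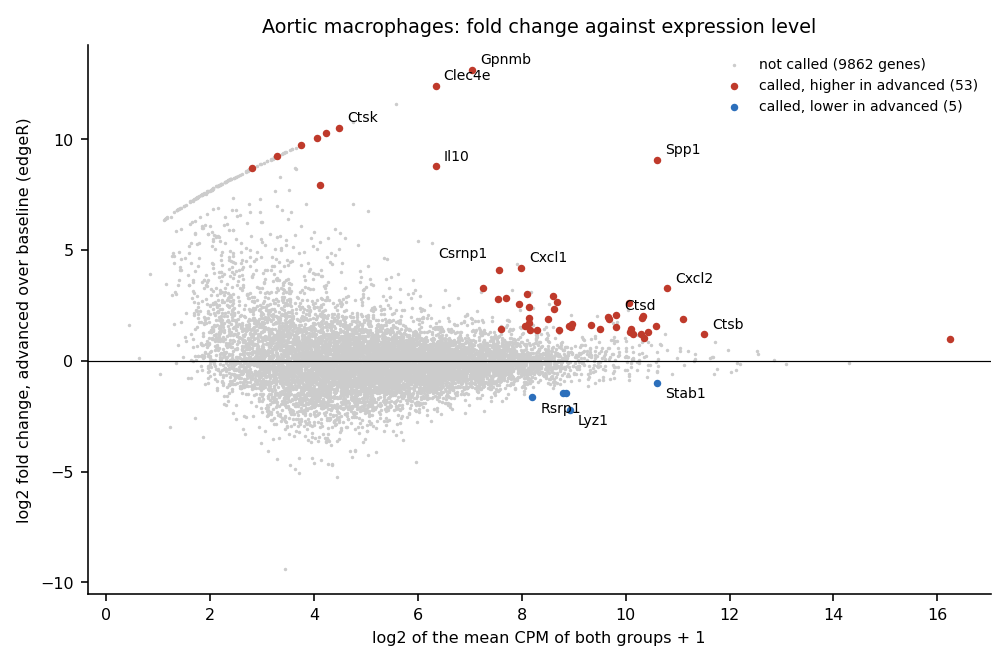
Log2 fold change of advanced over baseline aortic macrophages (y axis) against the log2 of the mean CPM of both groups plus 1 (x axis), 1 point for each of the 9920 genes tested. Red points are the 53 genes called higher and blue points the 5 called lower, the band of points at the upper left holds genes without a count at baseline, and the red point at the far right is Rn45s.

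The number of calls changed when a library was left out. It was 33 without advanced library 3, 32 without advanced library 4, 35 without baseline library 1, 33 without baseline library 2 and 154 without baseline library 4. Without advanced library 1 and baseline libraries 3 and 4 together, 173 genes were called (163 higher, 10 lower), 53 of the 58 among them. With each library left out in turn, 22 of the 58 genes remained called in all 8 fits. They were Clec4e, Cxcl2, Ctsd, Fos, Gpnmb, Gm6377, Il10, Emp1, Csrnp1, Thbs1, Cxcl1, Ctsb, Plin2, Vcam1, Spp1, Mpeg1, Sdcbp, Ccl3, Cd83, Pnrc1, Dusp1 and Lyz1. A fit of the 8 compared libraries alone, without the early ones, called 20 genes, all among the 58. They are the 22 without Ccl3, Cd83, Pnrc1 and Lyz1 (adjusted p = 0.0619 to 0.111 in that fit, edgeR), and with Rsrp1 and Rn45s. The other 38 were not called without the early libraries. For the 36 that lost the call when a library was left out, the libraries whose absence ended the call are named below by gene or group.

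Foam cell genes were among the higher ones. The gene lists were chosen with earlier results of these data known, so their counts and medians describe and are no independent support. For this list and each one below, the shares over all genes tested were 0.534% called higher and 0.0504% called lower. With a median log2 fold change of -0.04, positive fold changes were not the majority over all genes. Of 17 genes of TREM2 foam cells, 5 were higher (Gpnmb, Spp1, Ctsd, Ctsb and Plin2), none was lower and 16 had a positive fold change, with a median log2 fold change of 2.02 against -0.04 for all genes. The median member is Cd5l, a secreted scavenger protein that is also among the markers of large peritoneal macrophages, at 53.7 to 107 CPM in advanced and 0 to 60.7 CPM in baseline libraries, which overlapped. The 6 peritoneal markers together had 177 to 458 CPM in advanced and 67.4 to 198 CPM in baseline libraries (exact permutation p = 0.0571), all 4 that were tested had a positive fold change, and their part in the result was not tested. Gpnmb, a transmembrane glycoprotein of lysosomes (chromosome 6, 49036518 to 49058182), had 104, 266, 425 and 258 CPM in the advanced libraries and no count in any baseline library. Against a floor of 3 counts over the 4 baseline libraries, 0.0918 CPM, that is at least 2869-fold higher (adjusted p = 8.41e-05, edgeR), a bound that covers counting error only. At the early stage Gpnmb was at 12.7, 0, 8.75 and 0.501 CPM.

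Spp1 encodes osteopontin, a secreted matrix glycoprotein (chromosome 5, 104435111 to 104441053). It had 641, 2660.0, 4901 and 4231 CPM in the advanced libraries, against 0, 24.6, 0 and 1.07 CPM in the baseline libraries (log2 fold change 9.07 ± 1.51, standard error; adjusted p = 0.00446, edgeR). The lowest advanced library, which was also the shallowest, was far above the highest baseline library. With limma-voom and quality weights Spp1 and Gpnmb were not called (adjusted p = 0.393 and 0.0583). At the early stage Spp1 had 27.4, 123, 0.380 and 28.1 CPM.

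Plin2 encodes perilipin-2, which coats lipid droplets. Its level was 622, 436, 556 and 637 CPM in the advanced libraries and 94.9, 149, 165 and 239.6 CPM in the baseline libraries, without overlap (log2 fold change 1.88 ± 0.31; adjusted p = 0.00432, edgeR). Trem2 itself did not pass, at 56.8, 96.1, 141 and 124 CPM in advanced and 7.70, 42.1, 0 and 5.57 CPM in baseline libraries (3.08 ± 1.06; adjusted p = 0.23, edgeR), although its levels did not overlap either. Fabp5, a fatty acid carrier, had 36.3 to 78.7 CPM in advanced and 0 to 8.28 CPM in baseline libraries (4.30 ± 1.60; adjusted p = 0.301, edgeR). Lpl, lipoprotein lipase, was the list's 1 member with a negative fold change, at 446 to 1008 CPM in advanced and 719 to 1316 CPM in baseline libraries (-0.29 ± 0.31; adjusted p = 0.974, edgeR). Mmp12, the macrophage elastase, ran from 130.4 to 839 CPM in advanced and from 0 to 249.7 CPM in baseline libraries, which overlapped (2.36 ± 0.94; adjusted p = 0.371, edgeR).

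The promoters of Gpnmb, Clec4e and Cxcl1, higher genes described here and below, and of Rsrp1, a lower one, show what precedes some of the genes that changed most. Each runs from 250 bases before to 50 bases after the transcription start, 5' to 3' on the gene's strand, from RefSeq in GRCm38.p6. Capitals mark a motif match, as described after the sequences.
Gpnmb, chr6:49036268-49036567, plus strand: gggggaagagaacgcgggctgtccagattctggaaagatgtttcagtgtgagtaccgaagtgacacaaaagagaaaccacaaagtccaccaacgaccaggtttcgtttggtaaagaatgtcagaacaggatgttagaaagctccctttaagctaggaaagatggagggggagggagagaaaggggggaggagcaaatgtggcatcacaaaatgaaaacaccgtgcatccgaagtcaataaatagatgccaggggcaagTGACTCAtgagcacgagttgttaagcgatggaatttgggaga
Clec4e, chr6:123289822-123290121, minus strand: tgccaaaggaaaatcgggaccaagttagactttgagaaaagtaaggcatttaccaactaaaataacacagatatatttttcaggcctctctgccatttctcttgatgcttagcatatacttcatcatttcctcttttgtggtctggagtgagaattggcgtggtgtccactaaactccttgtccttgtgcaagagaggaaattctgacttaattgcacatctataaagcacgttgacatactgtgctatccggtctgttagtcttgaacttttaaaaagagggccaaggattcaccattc
Cxcl1, chr5:90890995-90891294, plus strand: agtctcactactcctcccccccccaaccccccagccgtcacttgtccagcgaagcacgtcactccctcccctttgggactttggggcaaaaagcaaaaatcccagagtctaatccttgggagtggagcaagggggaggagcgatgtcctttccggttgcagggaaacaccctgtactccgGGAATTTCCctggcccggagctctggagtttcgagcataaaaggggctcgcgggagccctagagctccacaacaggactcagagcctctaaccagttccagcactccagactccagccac
Rsrp1, chr4:134923375-134923674, plus strand: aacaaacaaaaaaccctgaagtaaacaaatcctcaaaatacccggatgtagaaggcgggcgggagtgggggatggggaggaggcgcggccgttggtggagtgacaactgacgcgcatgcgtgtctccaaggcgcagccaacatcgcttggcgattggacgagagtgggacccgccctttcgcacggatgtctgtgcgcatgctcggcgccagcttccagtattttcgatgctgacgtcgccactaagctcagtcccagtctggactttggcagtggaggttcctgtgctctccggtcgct

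Both strands were searched for TGANTCA (the AP-1 site of Fos and Jun), TGACGTCA (CRE), CACGTG (E-box), GGAANTCCC (kappaB), GAGGAAGT (PU.1) and GAAANNGAA (ISRE). Gpnmb holds TGACTCA starting at base 9 of the transcript. Cxcl1 holds GGAATTTCC starting 70 bases before its start, a kappaB form added after the sequences were seen. Clec4e and Rsrp1 hold none of these, which says only that the letters are not in these windows. Of the 53 higher genes 39 had a promoter in the table, and TGANTCA was in 7.69% of them, against 4.77% of 7668 promoters of all genes tested. The shares for the higher genes and for all genes were 5.13 and 3.47% for CRE, 12.8 and 10.7% for the E-box, 2.56 and 2.45% for GGAANTCCC, 7.69 and 3.56% for PU.1 and 10.3 and 7.66% for ISRE. For GGAATTTCC the shares, 5.13 and 0.456%, are no test. It was added after the Cxcl1 promoter was seen, and the 2 higher genes that hold it are Cxcl1 and Cxcl2. Each share of the higher genes rests on 1 to 5 promoters. A match is a description of the letters, not of binding.

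Of 30 lysosome genes, the cathepsins Ctsb, Ctsd, Ctsk and Ctss were the 4 called, all higher, and 23 had a positive fold change, with a median of 0.45 on the log2 scale. The other cathepsins of the list did not pass and their groups overlapped. Ctsl had 179.8 to 490.2 CPM in advanced and 44.9 to 278 CPM in baseline libraries, Ctsz 219 to 383 CPM in advanced and 159.6 to 363 CPM in baseline libraries, and Ctsa 376 to 457 CPM in advanced and 422 to 710 CPM in baseline libraries. Ctsd encodes cathepsin D, an aspartic protease (chromosome 7, 142375910 to 142387827), and had 1402, 1149, 1767 and 1393 CPM in advanced and 276, 462, 415 and 332 CPM in baseline libraries (2.06 ± 0.24; adjusted p = 8.41e-05, edgeR). The early libraries, at 448, 499, 459 and 387 CPM, lay near the baseline ones.

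The cysteine proteases cathepsin B and cathepsin S also rose. Ctsb had 3691, 3401, 4492 and 4155 CPM in advanced and 2022, 2043, 2289 and 1203 CPM in baseline libraries (1.19 ± 0.20; adjusted p = 0.00432, edgeR). Of its exonic bases 12.8% overlap Fdft1 on the other strand, which had at most 8.51 CPM in an advanced and 8.28 CPM in a baseline library. Ctss had 1918, 1415, 1725 and 1777 CPM in advanced and 902, 987, 1013 and 783 CPM in baseline libraries (1.01 ± 0.20; adjusted p = 0.0145, edgeR). Its call was lost without advanced library 3 or 4 or baseline library 1 (adjusted p up to 0.0651). Ctsk encodes cathepsin K, a collagen-degrading protease known from osteoclasts. It had 28.9, 39.2, 67.0 and 35.7 CPM in advanced libraries and no count in the 4 baseline libraries or the 4 early ones. That is at least 465-fold higher against the same floor (adjusted p = 0.0406, edgeR), a bound that covers counting error only. In baseline libraries 3 and 4, 25.6 and 31.3% of the genes tested had no count. The call of Ctsk was lost in 7 of the 8 fits that left out a library, all but the one without baseline library 4 (adjusted p up to 0.207).

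**Figure D2:**
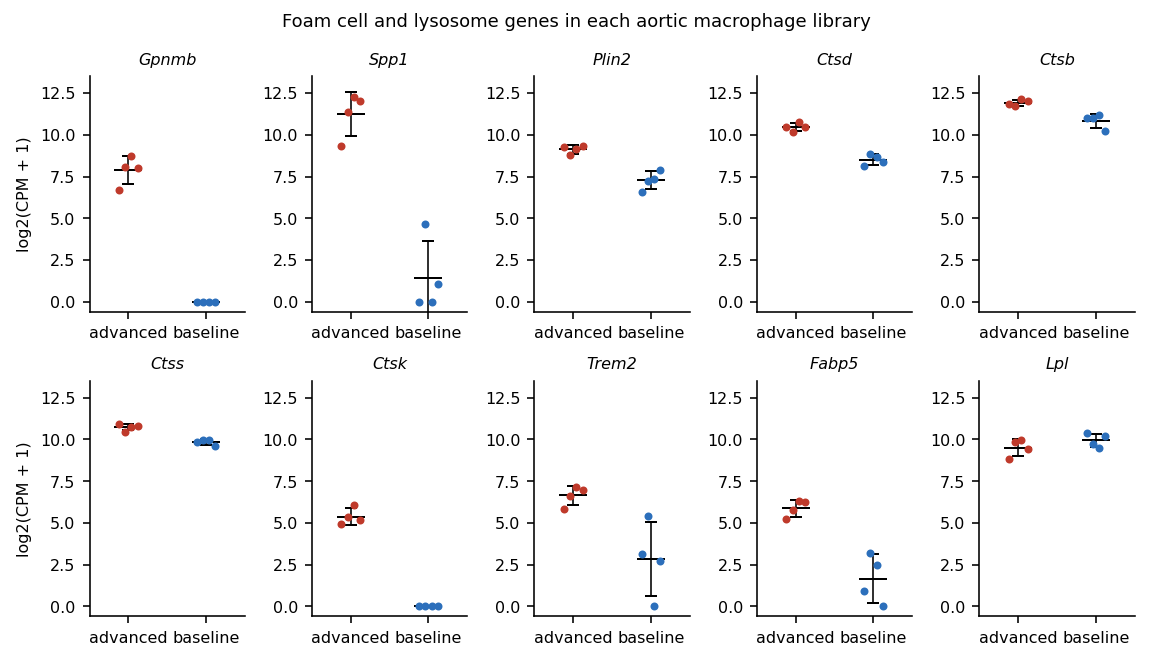
Log2(CPM + 1) of 10 foam cell and lysosome genes in each of the 4 advanced (red) and 4 baseline (blue) libraries, with the mean and SD in black. The groups do not overlap in any panel but Lpl, and Gpnmb and Ctsk lie at 0 in all 4 baseline libraries.

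Of 15 genes for lipid droplets and fatty acids Plin2 was called, and 9 had a positive fold change (median 0.49). None of 10 genes of cholesterol efflux controlled by the sterol receptor LXR was called, and 8 had a positive fold change (median 0.68). Abca1, which loads cholesterol onto apolipoprotein A-I, had 1736, 2109, 2228 and 1864 CPM in advanced and 1238, 1192, 1477 and 1133 CPM in baseline libraries (0.77 ± 0.22; adjusted p = 0.121, edgeR). Abcg1, which moves cholesterol to mature HDL, had 139 to 308 CPM in advanced and 17.3 to 83.7 CPM in baseline libraries (1.92 ± 0.48; adjusted p = 0.0776, edgeR). Neither gene's levels overlapped, and neither passed. None of 17 SREBP2 genes, which make and take up cholesterol, was called, and 4 had a positive fold change (median -0.72).

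Inflammatory genes formed another group of higher genes. Of 22 NF-kB inflammatory genes 6 were higher (Clec4e, Il10, Cd83, Nfkbiz, Nlrp3 and Il1b), none was lower and 19 had a positive fold change (median 1.64). Clec4e encodes Mincle, a receptor for glycolipids and dead cells (chromosome 6, 123281789 to 123289871). It had 113, 153, 208 and 169.8 CPM in the advanced libraries and no count in any baseline library. That is at least 1751-fold higher against the floor (adjusted p = 1.38e-06, edgeR), a bound that covers counting error only. The 4 early libraries already held 104, 141, 53.6 and 158 CPM.

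Il10, an anti-inflammatory cytokine, had 48.5, 176, 253 and 167 CPM in advanced and 0, 0.120, 0 and 1.18 CPM in baseline libraries (8.79 ± 1.29; adjusted p = 0.00141, edgeR), and was not called by limma-voom (adjusted p = 0.0895). Il1b, the precursor of interleukin-1 beta, had 758, 739, 685 and 623 CPM in advanced and 21.9, 85.2, 51.1 and 294 CPM in baseline libraries (2.66 ± 0.56; adjusted p = 0.0263, edgeR). Nlrp3, the inflammasome sensor that leads to its cleavage, had 405, 683, 786 and 732 CPM in advanced and 76.6, 57.9, 98.9 and 306 CPM in baseline libraries (2.32 ± 0.45; adjusted p = 0.0153, edgeR). Baseline library 4 was the highest of its group in Il10, Il1b, Nlrp3, Cd83 and Nfkbiz, and still below every advanced library.

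Cd83, a surface protein of activated antigen-presenting cells, had 1299, 2053, 1667 and 2294 CPM in advanced and 129, 301, 99.8 and 723 CPM in baseline libraries (2.60 ± 0.47; adjusted p = 0.00905, edgeR). Nfkbiz, a nuclear regulator of NF-kB, had 1369 to 2632 CPM in advanced and 364 to 1085 CPM in baseline libraries (1.94 ± 0.35; adjusted p = 0.00905, edgeR). The call was lost for Il1b without advanced library 1 or baseline library 2 or 3 (adjusted p up to 0.0888), for Nlrp3 without baseline library 1, 2 or 3 (up to 0.0634) and for Nfkbiz without baseline library 2 (0.0513). Members short of the threshold included Tnfaip3, an inhibitor of NF-kB, at 1022 to 1185 CPM in advanced and 79.6 to 779 CPM in baseline libraries (2.01 ± 0.56; adjusted p = 0.118, edgeR). Ptgs2, the inducible cyclooxygenase, had 285 to 678 CPM in advanced and 0.103 to 113 CPM in baseline libraries (3.12 ± 0.91; adjusted p = 0.129, edgeR).

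Of 18 chemokine genes 4 were higher (Cxcl2, Cxcl1, Ccl3 and Ccl8), none was lower and 14 had a positive fold change (median 1.08). Cxcl2, which attracts neutrophils, had 2166, 3444, 3480.2 and 3803 CPM in advanced and 356, 344, 179.6 and 536 CPM in baseline libraries (3.28 ± 0.32; adjusted p = 1.14e-05, edgeR). Cxcl1, a related chemokine, had 150.01, 493, 628 and 639 CPM in advanced and 40.6, 24.5, 2.65 and 43.9 CPM in baseline libraries (4.19 ± 0.68; adjusted p = 0.00404, edgeR).

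Ccl3 attracts monocytes. It had 253, 302, 293 and 443 CPM in advanced and 29.6, 65.3, 11.7 and 92.9 CPM in baseline libraries (2.77 ± 0.48; adjusted p = 0.0057, edgeR), and 367 to 479 CPM in the early ones. Ccl8, a chemokine of resident macrophages, had 544, 573, 971 and 634 CPM in advanced and 107, 132, 149.8 and 6.00 CPM in baseline libraries (2.95 ± 0.60; adjusted p = 0.0219, edgeR). Its call was lost without advanced library 1 or 3 or baseline library 1 or 2 (adjusted p up to 0.0741). Neutrophil markers summed to at most 2.91 CPM in advanced and 16.2 CPM in baseline libraries, with S100a9, Camp and Cxcr2 at 0 in both groups.

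All 24 immediate-early genes tested had a positive fold change (median 1.29), and 8 of them were called, all higher (Fos, Fosb, Junb, Egr1, Atf3, Klf6, Dusp1 and Zfp36). These genes are transcribed within minutes of a stimulus. Fos, a subunit of AP-1, had 3885, 3509, 2543 and 3733 CPM in advanced and 1029, 932, 1042 and 995 CPM in baseline libraries (1.89 ± 0.22; adjusted p = 8.41e-05, edgeR). The early libraries, at 5701, 3248, 4224 and 2849.6 CPM, were in the advanced range or above it.

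Fosb and Junb encode further AP-1 subunits. Fosb had 991 to 1623 CPM in advanced and 214 to 644 CPM in baseline libraries (1.88 ± 0.36; adjusted p = 0.0138, edgeR). Junb had 1146 to 1641 CPM in advanced and 319 to 657 CPM in baseline libraries (1.51 ± 0.29; adjusted p = 0.0131, edgeR), and 7.52% of its exonic bases overlap Prdx2 on the other strand. Atf3, a stress-induced repressor, had 1007 to 1574 CPM in advanced, 1371 to 3057 CPM in early and 166 to 705 CPM in baseline libraries (1.96 ± 0.39; adjusted p = 0.0198, edgeR). Dusp1, a phosphatase of MAP kinases, rose by 1.31 ± 0.24 (adjusted p = 0.00905, edgeR). Zfp36, which destabilises cytokine mRNA, rose by 1.56 ± 0.32 (adjusted p = 0.0218, edgeR).

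The transcription factors Klf6 (1.21 ± 0.27; adjusted p = 0.0364, edgeR) and Egr1 (1.21 ± 0.27; adjusted p = 0.043, edgeR) rose least of the 8. Fos and Dusp1 remained called with each library left out. The call was lost for Junb without advanced library 4 or baseline library 1 or 2 (adjusted p up to 0.0574) and for Fosb without baseline library 1, 2 or 3 (0.0637). It was lost for Atf3 without advanced library 1 or 2 or baseline library 1, 2 or 3 (0.0792), and for Zfp36 without advanced library 1 or 4 or the same baseline libraries (0.0769). For Klf6 and Egr1 it was lost in 7 of the 8 fits, all but the one without baseline library 4 (0.108 and 0.177). Of 13 heat shock chaperones, another quickly induced group, none was called and 8 had a positive fold change (median 0.12). Hspa8, the constitutive HSP70, had 2095 to 2677 CPM in advanced and 1140.1 to 2174 CPM in baseline libraries (0.58 ± 0.21; adjusted p = 0.3, edgeR).

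**Figure D3:**
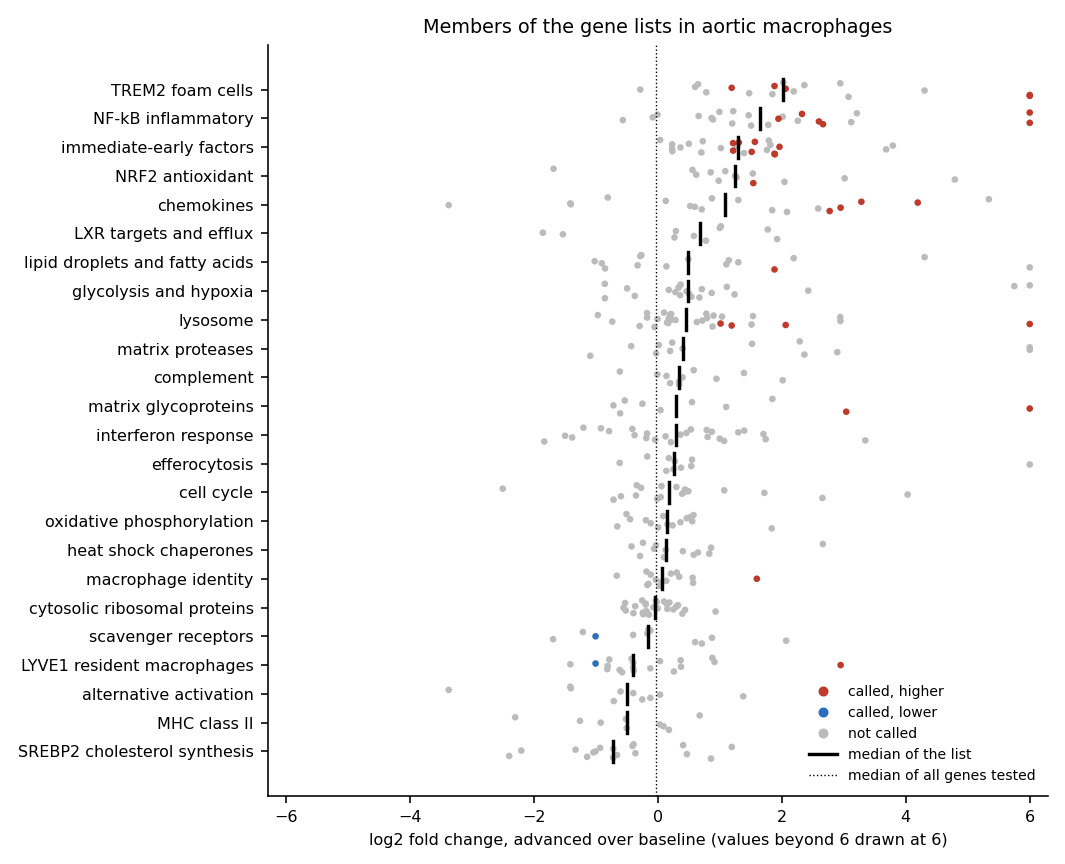
Log2 fold change of advanced over baseline (x axis) of each tested member of the 24 gene lists, 1 row a list ordered by its median (black bar), with values beyond 6 drawn at 6. Red points are members called higher and blue points members called lower. The TREM2 foam cell, NF-kB and immediate-early lists have the highest medians, 2.02, 1.64 and 1.29, against -0.04 for all genes (dotted line). The lists were chosen with earlier results of these data known.

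Of 13 NRF2 genes of the antioxidant response, Hmox1 was called and 12 had a positive fold change (median 1.24). Hmox1, heme oxygenase-1, had 475, 664, 1015 and 733 CPM in advanced and 187, 193, 375 and 310.1 CPM in baseline libraries (1.54 ± 0.31; adjusted p = 0.0221, edgeR). Nfe2l2, which encodes NRF2 itself, had 664, 736, 665 and 747 CPM in advanced and 219, 408, 324 and 90.9 CPM in baseline libraries (1.58 ± 0.33; adjusted p = 0.0283, edgeR). The call was lost for Hmox1 without advanced library 3 or 4 or baseline library 1 or 2 (adjusted p up to 0.124), and for Nfe2l2 without baseline library 1 or any advanced library (0.0872). The ferritin chains that store iron fell short of the threshold. Ftl1, the light chain, had 860.1 to 1289 CPM in advanced and 397 to 667 CPM in baseline libraries (1.09 ± 0.25; adjusted p = 0.0577, edgeR). Fth1, the heavy chain, had 3982 to 4657 CPM in advanced and 1984 to 3219.6 CPM in baseline libraries (0.85 ± 0.20; adjusted p = 0.065, edgeR).

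Other called genes, grouped here for description after their values were seen, include genes for matrix, adhesion and other membrane-associated proteins. Thbs1, thrombospondin-1, had 851, 286, 392 and 391 CPM in advanced and 129, 34.4, 65.5 and 28.0 CPM in baseline libraries (3.04 ± 0.47; adjusted p = 0.00271, edgeR). Vcam1, an adhesion molecule, had 318, 277, 181 and 309.9 CPM in advanced and 30.8, 23.6, 63.1 and 6.54 CPM in baseline libraries (3.27 ± 0.54; adjusted p = 0.00432, edgeR). The early libraries lay between the groups, at 81.8, 79.3, 88.3 and 89.2 CPM. Vcam1 is also expressed by activated endothelium, whose 7 markers summed to 24.7 to 36.3 CPM in advanced and 5.68 to 87.6 CPM in baseline libraries.

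Emp1, a membrane protein, rose by 2.43 ± 0.35 (adjusted p = 0.00141, edgeR), and Sdc4, the proteoglycan syndecan-4, by 2.84 ± 0.53 (adjusted p = 0.0109, edgeR). Sdcbp, which binds syndecans, rose by 1.43 ± 0.24 (adjusted p = 0.0055, edgeR). Cd14, the co-receptor for lipopolysaccharide and 1 of the 15 macrophage genes, had 955, 712, 1141 and 999 CPM in advanced and 298, 193, 319 and 523 CPM in baseline libraries (1.60 ± 0.30; adjusted p = 0.0131, edgeR). Cxcr4, the receptor for CXCL12, rose by 1.69 ± 0.36 (adjusted p = 0.0313, edgeR), and Cd38, an enzyme that consumes NAD, by 1.44 ± 0.33 (adjusted p = 0.044, edgeR). Mpeg1, the pore-forming perforin-2 of macrophages, rose by 1.29 ± 0.22 (adjusted p = 0.00476, edgeR). The call was lost for Sdc4 without baseline library 1 or 2 (adjusted p up to 0.0549), and for Cd14 without those or advanced library 3 (0.0595). It was lost for Cxcr4 in 7 of the 8 fits, all but that without baseline library 4 (0.0941), and for Cd38 in 6, all but those without baseline library 1 or 4 (0.21).

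Among nuclear and signalling proteins, Csrnp1, a nuclear protein induced by AXIN1, had 236, 279, 489 and 405 CPM in advanced and 47.1, 19.0, 18.4 and 5.89 CPM in baseline libraries (4.12 ± 0.63; adjusted p = 0.00221, edgeR). Kdm6b, a demethylase of histone H3 at lysine 27, rose by 1.65 ± 0.33 (adjusted p = 0.0198, edgeR). Ezh2, a methyltransferase for the same lysine, had 40.1, 26.6, 43.7 and 21.1 CPM in advanced and 0.103, 0.360, 0 and 0 CPM in baseline libraries (7.93 ± 1.79; adjusted p = 0.044, edgeR). Id2 (1.91 ± 0.38), which blocks basic helix-loop-helix factors, Ets2 (1.41 ± 0.31), an ETS factor, and Pnrc1 (1.40 ± 0.25), a nuclear receptor coregulator, rose as well, with adjusted p of 0.0198, 0.0325 and 0.00905 from edgeR. Plek (2.02 ± 0.38), a substrate of protein kinase C, Etf1 (1.59 ± 0.31), a translation release factor, H3f3b (1.42 ± 0.30), a histone H3.3 gene, and Fnip1 (1.40 ± 0.30), a partner of folliculin, had adjusted p of 0.0111, 0.0153, 0.0272 and 0.0281 (edgeR). The predicted gene Gm6377 (2.57 ± 0.37; adjusted p = 0.00137, edgeR), 8.19% of whose exonic bases overlap Sh3bgrl on the same strand, and Rn45s (1.00 ± 0.18; adjusted p = 0.00955, edgeR) complete the genes that were counted at baseline.

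Several of these calls were lost when a library was left out, for most genes whichever of several libraries it was. Plek and Rn45s lost the call without baseline library 1 or 2 (adjusted p up to 0.0594 and 0.0546). Kdm6b lost it in 5 of the 8 fits, all but those without advanced library 1 or 2 or baseline library 4 (0.0758). Etf1 kept it only without advanced library 1 or baseline library 3 or 4, and Id2 only without advanced library 1 or baseline library 2 or 4 (adjusted p up to 0.0773 and 0.12). Fnip1 kept it only without advanced library 1 or baseline library 1 or 4 (0.147). H3f3b and Ets2 kept it only without advanced library 1 or baseline library 4 (0.0913 and 0.198), and Ezh2 only without baseline library 4 (0.198). Limma-voom did not call Ezh2 or Cd38 (adjusted p = 0.199 and 0.0732).

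A further 5 higher genes had no count at baseline and low levels at the advanced stage. Each fold below sets the advanced mean against the floor and covers counting error only. In baseline libraries 3 and 4, 25.6 and 31.3% of the genes tested had no count. Areg, the growth factor amphiregulin, had 27.0, 42.5, 52.9 and 21.1 CPM in advanced libraries, at least 391-fold higher against the floor (adjusted p = 0.0325, edgeR). Smim3, a small membrane protein, had 42.9, 22.4, 44.1 and 17.0 CPM (at least 344-fold; adjusted p = 0.0254, edgeR). Prnp, the prion protein, had 51.2, 16.8, 19.6 and 12.2 CPM (at least 272-fold; adjusted p = 0.0406, edgeR). Caap1, an inhibitor of apoptosis, had 12.1 to 29.2 CPM (at least 191-fold; adjusted p = 0.0318, edgeR). Ogn, the matrix proteoglycan osteoglycin known from fibroblasts and smooth muscle, had 0, 26.1, 10.4 and 11.7 CPM, the 1 called gene whose groups overlapped. Its advanced mean was at least 132-fold the floor (adjusted p = 0.0381, edgeR), which does not hold for advanced library 1. The early libraries had 29.5, 70.1, 62.4 and 29.6 CPM of Ogn, above every advanced one. All 5 calls were lost in most fits that left out a library. Areg, Prnp and Caap1 kept it only without baseline library 4, Ogn only without that or advanced library 1, and Smim3 only without baseline library 3 or 4 (adjusted p up to 0.136). None of the 5 was called by limma-voom (adjusted p = 0.0924 to 0.209). The fitted fold changes of genes without a baseline count depend on the prior count and are not given.

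**Figure D4:**
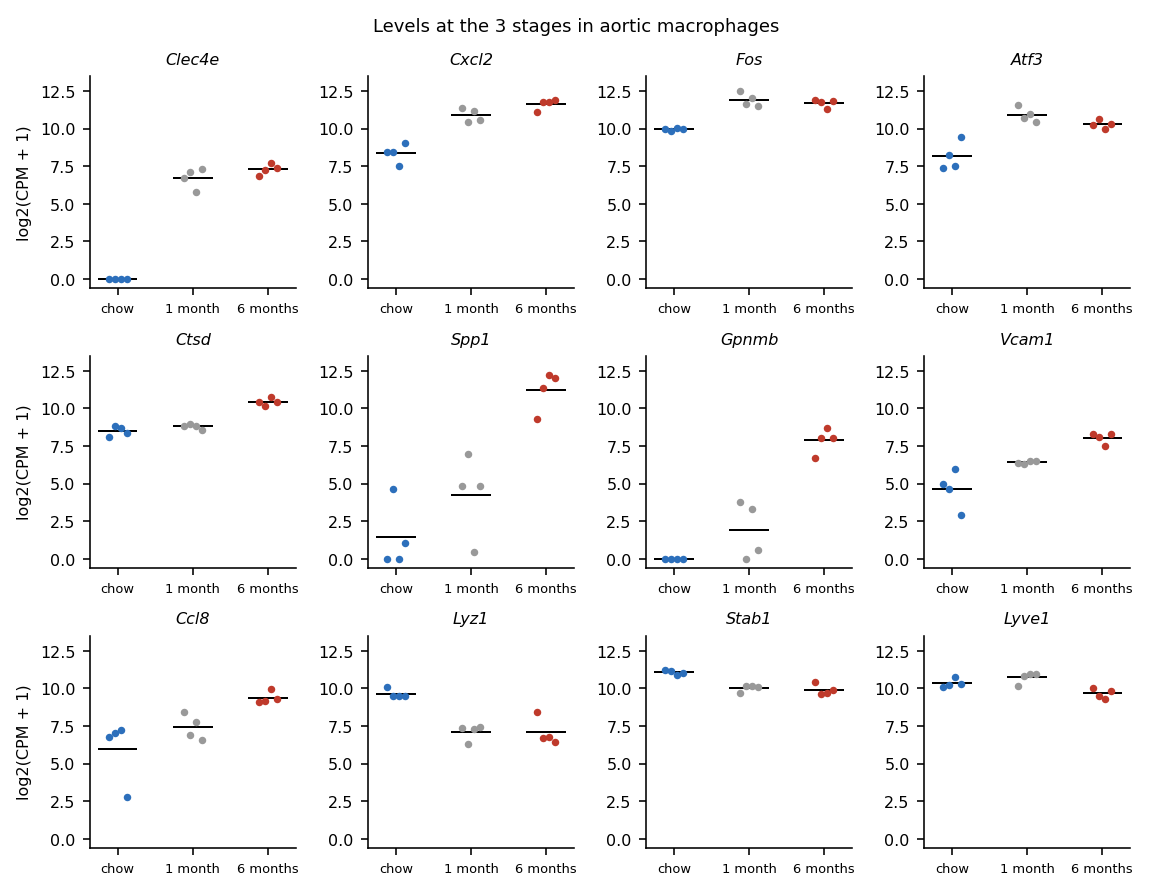
Log2(CPM + 1) of 12 genes in the aortic libraries at baseline (chow, blue), after 1 month (early, grey) and after 6 months (advanced, red) of the diet, 4 libraries a stage, with the mean as a bar. Clec4e, Cxcl2, Fos and Atf3 lie near their advanced levels at 1 month, Ctsd, Spp1 and Gpnmb lie nearer to baseline there, and the early libraries share their baseline with the advanced comparison.

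The genes lower at the advanced stage were 5. Lyz1, a lysozyme gene (chromosome 10, 117287795 to 117292868), had 347, 103, 106 and 83.9 CPM in advanced and 1074, 729, 719 and 711 CPM in baseline libraries (-2.23 ± 0.41; adjusted p = 0.0102, edgeR). Its near-identical neighbour Lyz2 (chromosome 10, 117277541 to 117282272) had 5909 to 7045 CPM in advanced and 5095 to 5965 CPM in baseline libraries (0.30 ± 0.16; adjusted p = 0.648, edgeR), and the counting could split reads between the pair, so the level of Lyz1 is uncertain.

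Stab1 encodes stabilin-1, a scavenger receptor of resident macrophages (chromosome 14, 31139017 to 31168651). It had 1361, 796, 826 and 953 CPM in advanced and 2399, 2235, 1880.3 and 2047 CPM in baseline libraries (-1.01 ± 0.21; adjusted p = 0.0275, edgeR), and 828 to 1140.5 CPM in the early ones. Rsrp1, an arginine and serine-rich protein, had 135, 160.1, 119 and 132 CPM in advanced and 404, 366, 438 and 593 CPM in baseline libraries (-1.63 ± 0.29; adjusted p = 0.00905, edgeR). Kmt2d, a methyltransferase of histone H3 at lysine 4, had 262, 215, 251 and 218 CPM in advanced and 458, 648, 597 and 1020.0 CPM in baseline libraries (-1.44 ± 0.31; adjusted p = 0.0325, edgeR). Fnbp1, which bends membranes in endocytosis, had 137, 273, 233 and 259.7 CPM in advanced and 746, 556, 491 and 838 CPM in baseline libraries (-1.43 ± 0.31; adjusted p = 0.0325, edgeR). The levels of all 5 genes did not overlap.

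The call was lost for Rsrp1 without advanced library 3 or 4 (adjusted p up to 0.0565). It was lost for Stab1 without advanced library 2, 3 or 4 or baseline library 1 or 2 (0.14), for Kmt2d without any advanced library or baseline library 2 (0.153) and for Fnbp1 without any advanced library or baseline library 1 or 2 (0.119). Kmt2d and Fnbp1, like the higher genes Areg, Prnp and Cd38, also lost it in the fit without the 3 libraries that stood apart.

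Of 19 genes of LYVE1 resident macrophages, Ccl8 was higher, Stab1 was lower and 7 had a positive fold change (median -0.40). In 5 of the 19 every advanced library was below every baseline library, against 3.78% of all genes tested. Lyve1 had 1062, 708, 635 and 887 CPM in advanced and 1108, 1201, 1743 and 1246 CPM in baseline libraries (-0.58 ± 0.24; adjusted p = 0.415, edgeR). Cbr2, a carbonyl reductase of resident macrophages, had 261 to 335 CPM in advanced and 422 to 702 CPM in baseline libraries (-0.82 ± 0.27; adjusted p = 0.203, edgeR). Mrc1, the mannose receptor, had 3702 to 4944 CPM in advanced and 3953 to 5679 CPM in baseline libraries (-0.12 ± 0.18; adjusted p = 0.999, edgeR). Of 11 scavenger receptors Stab1 was the 1 called, and 4 had a positive fold change (median -0.15).

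Other functions of macrophages had no called member. Of all genes tested 0.585% were called, so lists of this size can hold none without differing from the rest. None of 9 MHC class II genes (4 with a positive fold change, median -0.50) and none of 10 genes of alternative activation (2 positive, median -0.50) passed. Cd74, the invariant chain, had 5216 to 10494 CPM in advanced and 5701 to 9129 CPM in baseline libraries. Of the alternative activation genes Retnla, a secreted protein induced by interleukin-4, had 829 to 1174 CPM in advanced and 288 to 2683 CPM in baseline libraries (-0.71 ± 0.38; adjusted p = 0.66, edgeR). The same held for 26 interferon response genes (15 positive, median 0.29), 11 complement genes (9 positive, median 0.34) and 10 genes of dead cell uptake (8 positive, median 0.26). C1qc, a chain of complement C1q, had 987 to 1752 CPM in advanced and 1086 to 1319 CPM in baseline libraries. It also held for 13 matrix proteases and their inhibitors (10 positive, median 0.40), 20 genes of glycolysis and hypoxia (16 positive, median 0.48) and 15 of oxidative phosphorylation (10 positive, median 0.15). None of 18 cell cycle genes (11 positive, median 0.18) or 28 ribosomal protein genes (11 positive, median -0.06) was called. Mki67, a marker of dividing cells, had 139 to 289 CPM in advanced and 181 to 661 CPM in baseline libraries. Of 10 matrix glycoproteins, Thbs1 and Spp1 were higher and 6 were positive (median 0.29).

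Markers of other cells were counted too, and none of those tested was called. Many did not enter the test and could not be called, and of all genes tested only 0.585% were called. Tested were 0 of 7 T and NK cell, 0 of 4 adipocyte, 1 of 7 neutrophil and 1 of 4 erythroid markers. Of endothelial markers 2 of 7 were tested, and of smooth muscle markers 3 of 7. Summed levels are given as ranges over 4 libraries. Fibroblast markers (7 genes, among them Dcn and Col1a1) had 140.2 to 379 CPM in advanced and 8.89 to 287 CPM in baseline libraries (exact permutation p = 0.2). Markers of dendritic cells had 50.3 to 149 CPM in advanced and 129 to 362 CPM in baseline libraries, with an exact permutation p of 0.0571. Those of classical monocytes had 303 to 717 CPM in advanced and 519 to 907 CPM in baseline libraries (exact permutation p = 0.171), and those of large peritoneal macrophages 177 to 458 CPM in advanced and 67.4 to 198 CPM in baseline libraries (exact permutation p = 0.0571). Smooth muscle markers were at 0 to 29.1 CPM in advanced and 0 to 16.1 CPM in baseline libraries, T and NK cell markers at 0 to 142 CPM in advanced and 0 to 116 CPM in baseline libraries, and B cell markers at 4.99 to 39.1 CPM in advanced and 3.60 to 49.98 CPM in baseline libraries. Mast cell markers had 0 to 95.0 CPM in advanced and 0 to 106 CPM in baseline libraries, erythroid markers 0.405 to 30.7 CPM in advanced and 0 to 169 CPM in baseline libraries, and adipocyte markers at most 0.832 CPM in advanced and 0 CPM in baseline libraries. Some markers were at 0 in all baseline libraries while others of the same list were counted there. Of T and NK cells, Cd3e and Cd8a were at 0, but baseline library 2 had 66.8 CPM of Cd3g and 40.9 CPM of Lck. Of endothelium, Cdh5 was at 0, but Pecam1 reached 49.3 CPM and Vwf 40.6 CPM. Of smooth muscle, Cnn1 was at 0 but Tagln reached 16.1 CPM, and of large peritoneal macrophages, Gata6 was at 0 but Prg4 had 6.43 to 75.8 CPM. Adipoq of adipocytes was at 0 in all 8 libraries. The hemoglobin genes Hba-a1, Hbb-bs and Hbb-bt were at 0 in all 8 libraries. The part of these cells in the gene results was not tested.

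The same stages were compared in monocytes from blood and spleen and in peritoneal macrophages, to ask which changes differ between the vessel wall and the rest of the body. Of the 58 aortic genes 48 were tested in monocytes, and 11 of these (22.9%) were called there in either direction, where 19% of all genes were called. In the same direction as in the aorta 10 of the 48 were called, where 9.24% of all genes were called higher and 9.75% lower. In peritoneal macrophages 47 were tested and Kmt2d alone was called, lower there too, where 0.898% of all genes were called (0.512% higher, 0.386% lower). The difference in response, aortic minus monocyte log2 fold change, passed for 21 of 8924 genes tested in both (0.235%; 16 higher, 0.179%, and 5 lower, 0.056%). Against peritoneal macrophages it passed for 13 of 9031 genes (0.144%; 11 higher, 0.122%, and 2 lower, 0.0221%).

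Clec4e differed from both populations. It averaged 113 CPM in advanced and 54.4 CPM in baseline monocytes, and 148 CPM in advanced and 141 CPM in baseline peritoneal macrophages, beside 160.7 CPM in advanced and 0 CPM in baseline aortic macrophages. The differences of 11.34 ± 0.95 and 12.29 ± 0.94 on the log2 scale (adjusted p = 1.99e-06 and 8.20e-07, from the edgeR fits) and those of Smim3 (10.26 ± 2.03 and 10.45 ± 2.03; adjusted p = 0.0396 and 0.0477) rest on the absence of baseline counts in the aorta, and their size depends on the prior count. Csrnp1 rose in the aorta and differed from monocytes by 4.19 ± 0.69 and from peritoneal macrophages by 4.30 ± 0.76 (adjusted p = 0.00265 and 0.00446, from the edgeR fits). It averaged 22.4 CPM in advanced and 24.7 CPM in baseline monocytes, and only 5.88 CPM in advanced and 6.91 CPM in baseline peritoneal macrophages. Kdm6b, which fell in monocytes, at 133 CPM in advanced and 217 CPM in baseline ones, differed by 2.31 ± 0.35 and 2.44 ± 0.49 (adjusted p = 0.00265 and 0.0249, from the edgeR fits). Its level in peritoneal macrophages was low, at 11.3 CPM in advanced and 20.2 CPM in baseline ones on average.

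Against monocytes, the response was also higher for Vcam1 (3.09 ± 0.68; adjusted p = 0.0346), Nlrp3 (2.75 ± 0.48; adjusted p = 0.00679), Cd83 (3.05 ± 0.70; adjusted p = 0.0472) and Plek (2.13 ± 0.40; adjusted p = 0.0127), from the edgeR fits. Cd83 was low in monocytes, averaging 12.4 CPM in advanced and 17.2 CPM in baseline ones. The immediate-early genes Fos (1.80 ± 0.36), Junb (1.76 ± 0.35), Zfp36 (1.74 ± 0.39) and Nr4a1 (2.28 ± 0.42), an inducible nuclear receptor, differed too. In Nr4a1 the aortic change did not pass (501, 547, 488 and 778 CPM in advanced and 208, 171, 381 and 266 CPM in baseline libraries; 1.28 ± 0.35, adjusted p = 0.11, edgeR), while monocytes had 339 CPM in advanced and 704 CPM in baseline libraries on average. Hmox1 (1.67 ± 0.36) and Ftl1 (1.497 ± 0.28) differed as well, and so did Mpeg1 (1.52 ± 0.26) and Sdcbp (1.22 ± 0.27).

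The response was lower in the aorta than in monocytes for Shtn1 (-3.19 ± 0.55; adjusted p = 0.0032), a cytoskeletal protein, Igfbp4 (-3.13 ± 0.52; adjusted p = 0.00265), a binding protein of insulin-like growth factors, Gatm (-2.42 ± 0.53; adjusted p = 0.0342), an enzyme of creatine synthesis, and Rsrp1 (-1.69 ± 0.33; adjusted p = 0.0135), from the edgeR fits. In monocytes Shtn1 averaged 86.6 CPM in advanced and 14.3 CPM in baseline libraries, Igfbp4 17.6 CPM in advanced and 3.48 CPM in baseline ones, and Gatm 36.3 CPM in advanced and 6.96 CPM in baseline ones, and all 3 were called higher there. In the aorta Shtn1 was at 92.8 to 126 CPM in advanced and 79.2 to 273 CPM in baseline libraries (-0.54 ± 0.48; adjusted p = 0.935, edgeR), and Igfbp4 at 89.4 to 231 CPM in advanced and 258 to 426 CPM in baseline libraries (-0.73 ± 0.31; adjusted p = 0.434, edgeR). Gatm had 119 to 239 CPM in advanced and 118 to 353 CPM in baseline aortic libraries. The RIKEN transcript F630028O10Rik (-2.76 ± 0.58) was the fifth.

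Against peritoneal macrophages, the response was also higher in the aorta for Cxcl2 (4.48 ± 0.87; adjusted p = 0.0444), Emp1 (3.07 ± 0.43; adjusted p = 1.50e-04), Sdc4 (3.50 ± 0.64; adjusted p = 0.00633) and Thbs1 (2.76 ± 0.57; adjusted p = 0.0298), from the edgeR fits. Sdc4 was low in peritoneal macrophages, averaging 5.78 CPM in advanced and 9.90 CPM in baseline ones. The cathepsins Ctsd (1.74 ± 0.30; adjusted p = 0.00303) and Ctsb (1.14 ± 0.24; adjusted p = 0.0298) differed as well. Ctsd averaged 1961 CPM in advanced and 1669 CPM in baseline peritoneal macrophages, both above its advanced aortic mean of 1428 CPM. Ets2 differed by 1.82 ± 0.37. Lower responses were those of Lyz1 (-2.53 ± 0.55; adjusted p = 0.0443) and Rsrp1 (-2.20 ± 0.37; adjusted p = 0.00257). Without baseline library 4 of the aorta 81 differences passed against monocytes and 70 against peritoneal macrophages. They fell to 13 and 9 without advanced library 2, 14 and 6 without advanced library 3, 10 and 8 without advanced library 4, and 15 and 7 without baseline library 2.

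**Figure D5:**
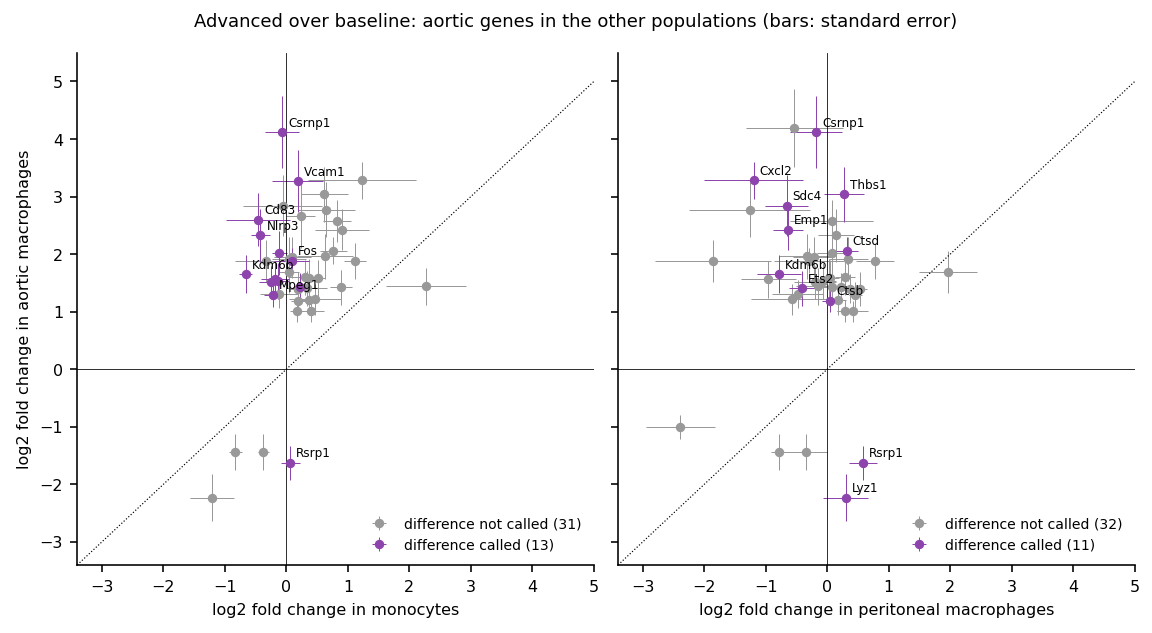
Log2 fold change of advanced over baseline in aortic macrophages (y axis) against that in monocytes (left, x axis) and peritoneal macrophages (right, x axis) for the called aortic genes tested in both, without those of an aortic fold change beyond 6, with standard errors as bars. Purple points are genes whose difference in response passed, and the dotted line marks equal responses.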

How the data were processed

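RNA-seq libraries of sorted mouse cells were made with the Ovation SoLo kit and sequenced paired-end, per the labels' protocols. The authors deposited raw read counts per gene (24421 genes in each library), made with STAR and featureCounts on mm10 per the submitters' processing notes. Versions and strand use are not given in the sources used here.

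The 12 aortic libraries were fitted together with edgeR 4.0.16 (R 4.3.3), with the stage as the only factor, TMM scaling, filterByExpr (minimum count 10) and the two-sided quasi-likelihood test. P-values were adjusted by Benjamini and Hochberg over 9920 genes, with a threshold of 0.05. Fold changes are advanced over baseline on the log2 scale. Standard errors are the fold change over the root of the F statistic. CPM divide each count by the library's total, Rn45s included, and multiply by 1e+06. Levels of different genes are not compared, since CPM take no account of length. Responses of 2 populations were subtracted, each from its own 12-library fit, with Satterthwaite degrees of freedom and the same adjustment over genes tested in both. Library measures were compared by two-sided exact permutation tests. Depth was 1.07 to 2.47 M counts in advanced and 5.28 to 9.74 M in baseline libraries, which limits the counting precision of low advanced levels most. Alternatives were DESeq2 1.42.0, limma-voom 3.58.1, RLE size factors, thinned counts, no filter, other sets of libraries, a replicate block and leaving out each library. Scripts were tested on simulated data.

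The genes named by rule were the 10 higher and 10 lower called genes of largest fold change without overlap, at least 20 CPM and no predicted symbol, up to 4 called members of each list (or its 2 highest in CPM), Apoe, and the 4 higher and 4 lower response differences of largest size. All other genes were named after their values were seen. The comparison and the gene lists were chosen with earlier results of these data known.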

Additional observations from a re-analysis of the deposited data

Results flagged for a closer look

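A sample lay far from the other 3 of its group in 15 of 164 groups of 4 looked at. The rule flags about 1 in 20 groups of independent, normally distributed values. These groups share the same 8 libraries and mostly hold genes picked as called or named, so the 15 cannot be judged against that rate. Among advanced libraries the samples far from the others were Ftl1 in library 2 (860.1 CPM, lowest), Lyz1 in library 1 (346.6 CPM, highest) and Plek in library 1 (1245 CPM, lowest). Advanced library 1 was also the lowest in genes detected at equal depth (9216) and in its median Spearman correlation with its group (0.8058), and it is the shallowest of the 8 libraries.

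Among baseline libraries, library 4 was the highest for H3f3b (655.2 CPM), Il10 (1.179 CPM), Nfkbiz (1085 CPM), Nlrp3 (305.7 CPM), Pnrc1 (312.6 CPM) and Tnfaip3 (778.7 CPM). Library 1 was the highest for Ets2 (206 CPM) and Lyz1 (1074 CPM), and library 2 for Spp1 (24.59 CPM). Library 3 was the lowest for Ftl1 (397.1 CPM).

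The response to the advanced stage differed between aortic macrophages and monocytes in 21 genes, by the test of the difference itself. The difference (aortic minus monocyte log2 fold change) was positive for Clec4e (11.34), Smim3 (10.26), Csrnp1 (4.19), Vcam1 (3.09), Cd83 (3.05), Nlrp3 (2.75), Kdm6b (2.31), Nr4a1 (2.28), Plek (2.13), Fos (1.80), Junb (1.76), Zfp36 (1.74), Hmox1 (1.67), Mpeg1 (1.52), Ftl1 (1.497) and Sdcbp (1.22). It was negative for Shtn1 (-3.19), Igfbp4 (-3.13), F630028O10Rik (-2.76), Gatm (-2.42) and Rsrp1 (-1.69).

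Against peritoneal macrophages 13 genes differed. The difference was positive for Clec4e (12.29), Smim3 (10.45), Cxcl2 (4.48), Csrnp1 (4.301), Sdc4 (3.50), Emp1 (3.07), Thbs1 (2.76), Kdm6b (2.44), Ets2 (1.82), Ctsd (1.745) and Ctsb (1.14). It was negative for Lyz1 (-2.53) and Rsrp1 (-2.205). Both comparisons use the same aortic libraries, so they are not independent. The sizes for Clec4e and Smim3 depend on the prior count.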

How the results depend on the processing

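Against 58 called genes (53 higher, 5 lower), DESeq2 called 294, limma-voom with quality weights 151, thinned counts 101, no filter on low counts 165, the 8 libraries alone 20, all 36 libraries in 1 fit 1816 and the fit without the 3 libraries that stood apart 173. That fit, and one without Rn45s, were chosen after seeing the data. Leaving out 1 library gave 32 to 154 calls. Of the 58, DESeq2 kept 57 (not Il1b), thinned counts 56 and limma-voom 48. Higher genes made up 91.4% of the calls, against 73.5% by limma-voom and 70.3% with all 36 libraries. The median log2 fold change of all genes was -0.04, against 0.46 by limma-voom, 0.40 with the replicate block and 0.18 with no filter.

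For differences against monocytes (21), the interaction in all 36 libraries gave 642, no filter 106 and the fit without the libraries apart 79, and leaving out 1 library 10 to 81. Against peritoneal macrophages (13), the interaction gave 665, no filter 78, the fit without the libraries apart 70, thinned counts 31 and the fit without Rn45s 20, and leaving out 1 library 6 to 70. The higher share against monocytes was 76.2%, and 86.7% thinned, 86.8% by the interaction and 91.1% without the libraries apart. The causes were not tested. The difference in genes detected was 3179.5 at equal and 3090 at deposited depth.

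The labels do not state that replicate numbers pair the samples. Deviations of same-numbered libraries correlated at -0.0298 to -0.00321, and those of different-numbered libraries at -0.0351 to 0.0582. Given the wide spread between baseline libraries, these values cannot exclude a pairing. The replicate block gave 50 calls (44 of the 58 among them), 24 against monocytes and 17 against peritoneal macrophages.

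Of 1401 alternative values for 78 single genes, 1110 kept direction and side of the threshold, 244 fell short of it, 47 passed it and 0 changed sign. Depth limits the counting precision of the advanced group most, since its shallowest library has 1.07 M counts. The spread between libraries was larger at baseline, where limma-voom gave quality weights of 0.0468 to 0.392, against 0.896 to 12.3 in advanced libraries. A gene without a call is not shown to be unchanged.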
